A study of Mus musculus with 13 samples.

Results

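The smooth muscle and pericyte genes are 10 transcripts known from, but not all confined to, the mural cells, the cells that wrap blood vessels: Acta2, Myh11, Tagln, Cnn1, Rgs5, Pdgfrb, Cspg4, Notch3, Kcnj8 and Abcc9. They were taken from a table of 49315 genes as the rows whose Ensembl identifiers carry these symbols on build GRCm38. All 10 were present, all 10 had reads in each of the 13 libraries, and all 10 passed the filter on low counts that left 16496 genes for testing. Acta2, Myh11, Tagln and Cnn1 encode contractile or cytoskeletal proteins of smooth muscle, and the other 6 are genes best known from pericytes, the mural cells of capillaries.

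PolyA-selected RNA was sequenced from mouse skeletal muscle in a design that crossed loss of a microRNA locus with diet. HFSC KO (n = 3 libraries) were miR-181a2b2-/- mice on a diet labelled HFSC, and HFSC flox (n = 4) were miR-181a2b2flox/flox mice on the same diet. Chow KO (n = 3) and chow flox (n = 3) were the same genotypes fed chow. The knockout is described as systemic, and the controls carry the floxed locus and so are not plain wild types, although their sample titles read WT. The labels leave HFSC unexpanded and name no strain, age, sex or Cre driver. Ischemia of the hindlimb is named for the series, but limb and time point are given for no sample. The RNA extraction text names white adipose tissue where the source label reads skeletal muscle. No label states that every library came from its own animal, so the p-values measure the spread between libraries, which may be partly technical.

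Total counts per library lay between 20830943 and 45710227. Skeletal muscle fibre markers (6 genes, Ckm and Myh4 among them) summed to between 69874 and 168934 CPM (counts scaled to a common library total) per library, and adipocyte markers (4 genes) to between 173 and 646 CPM, so the libraries carried the transcripts of muscle named by the source label. Mir181a-2 had 0 reads in each HFSC KO and chow KO library, 0 or 1 in HFSC flox and 0 to 2 in chow flox, and Mir181b-2 had 0 in all, so these reads do not check the genotype labels. On the first principal component, which held 50.7% of the variance, chow flox replicate 4 (51.3) lay with the chow KO libraries (51.8 to 88.6) and apart from the other 9 libraries (-67.8 to -13.3). Because this control library stands with the knockouts, results of the members on chow are given with and without it. It was singled out from these same data, and leaving out the control nearest the knockouts tends to widen the difference between genotypes. Calls made without it, in any contrast, are therefore a description and not independent support. The results of the other gene lists are given with it only. In whole muscle, fewer mural cells, less of a transcript per mural cell and reads of the same transcript from other cells cannot be told apart.

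Smooth muscle cells surround arteries and arterioles and set their width by contracting, while pericytes lie on capillaries and steady them. Endothelial cells recruit mural cells by secreting the growth factor PDGF-B, which acts on the receptor encoded by Pdgfrb, and contact through Notch ligands keeps mural cells mature through the receptor encoded by Notch3. The contractile genes are known targets of the serum response factor SRF and its partner myocardin, which bind CArG boxes. MicroRNAs such as miR-181a and miR-181b pair with sites in the 3′ untranslated region (UTR) of target transcripts through a short seed near their 5′ end.

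The deleted locus encodes 2 microRNAs that share 1 seed, and the sequences are shown because they define which members could hold a site for them. Both are from RefSeq on GRCm38.p6, plus strand, miR-181a-5p of Mir181a-2 at chr2:38852741-38852763 and miR-181b-5p of Mir181b-2 at chr2:38853845-38853868, with the seed (bases 2 to 8) in capitals. The same mature sequences are also encoded by a second locus on chromosome 1.
miR-181a-5p: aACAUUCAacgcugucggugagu
miR-181b-5p: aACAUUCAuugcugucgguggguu
The site that pairs with this seed is TGAATGT, and 16.4% of 21020 genes hold it on the transcript strand in their longest 3′ UTR annotated by GENCODE M21. Among the 10 members only Abcc9 held it, once in 2680 bases of 3′ UTR, and not as the 8-base form TGAATGTA that 5.28% of genes hold. The site is printed with 10 bases on each side and the seed match in capitals (GRCm38, chr6:142588670-142588696, minus strand).
Abcc9 site: ctgttggagcTGAATGTcatgatgttt
The other 9 members, with 3′ UTRs of 517 (Myh11) to 3473 bases (Rgs5), held no such letters. A match is a description of the sequence and not evidence of binding.

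A second stretch is shown because Acta2 is 1 of 2 members called in 2 contrasts. Among the members searched, only its region upstream of the RefSeq start holds the letters of SRF sites. A CArG box was searched as a pair of C, 6 bases of A or T with at most 1 other base, and a pair of G, a pattern that reads alike on both strands. It was sought in windows from 250 bases before to 50 after the RefSeq start of each gene (GRCm38.p6). Myh11, Tagln and Pdgfrb had no window and were not searched, so nothing is known here of their boxes. Of the 7 members with a window, only Acta2 held any, with 2 boxes, at -84 to -75 and -34 to -25 from the start. At least 1 such box is found in 9.98% of 32851 windows and at least 2 in 0.822%. None of the 7 members with a window held a box with all 6 core bases A or T, a form found in 1.63% of windows. In GENCODE M21 the Acta2 gene, on the minus strand, reaches chr19:34255590, beyond both boxes. The positions therefore hold for the RefSeq start only. The 250 bases before that RefSeq start of Acta2 (chr19:34255374-34255623, minus strand) are printed with both boxes in capitals.
Acta2 upstream: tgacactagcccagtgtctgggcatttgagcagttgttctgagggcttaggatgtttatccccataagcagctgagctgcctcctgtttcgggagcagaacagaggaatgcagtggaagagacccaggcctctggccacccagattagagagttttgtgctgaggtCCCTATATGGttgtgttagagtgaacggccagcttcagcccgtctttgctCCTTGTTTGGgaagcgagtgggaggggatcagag
The core TGGGAA of the Notch partner RBPJ, sought on both strands, was in the windows of Acta2, where it shares 3 bases with the second box, and of Kcnj8 and Abcc9, against 25.6% of all windows. The windows of Cnn1, Rgs5, Cspg4 and Notch3 held neither motif.

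Levels of different genes were compared as CPM per kilobase of exon, with library sizes scaled by the trimmed mean of M values (TMM). Rgs5, a regulator of G-protein signalling that marks pericytes, was the highest member in all 4 groups, averaging 114 CPM per kb in HFSC KO, 90.7 in HFSC flox, 72.8 in chow KO and 76.6 in chow flox. Abcc9, which encodes the sulfonylurea receptor SUR2, came second at 33.4, 39.7, 47.3 and 34.4 CPM per kb in HFSC KO, HFSC flox, chow KO and chow flox. Acta2 came next, at 25.4, 26.0, 12.6 and 24.1 CPM per kb in the same groups. The ranges of Rgs5 and Abcc9 did not overlap in any group, whereas those of Abcc9 and Acta2 overlapped in HFSC KO and in chow flox. Pdgfrb, Kcnj8, Myh11, Notch3 and Tagln followed with means over the 13 libraries of 8.24, 6.14, 5.78, 5.08 and 4.90 CPM per kb, and the ranges of most neighbours among these 5 overlapped. Cspg4 (1.25) and Cnn1 (0.521) were the lowest in every group, and their ranges overlapped neither each other nor those of the members above. Cnn1 rested on 19 to 88 reads per library, so its folds are the least precise of the set.

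**Figure D1:**
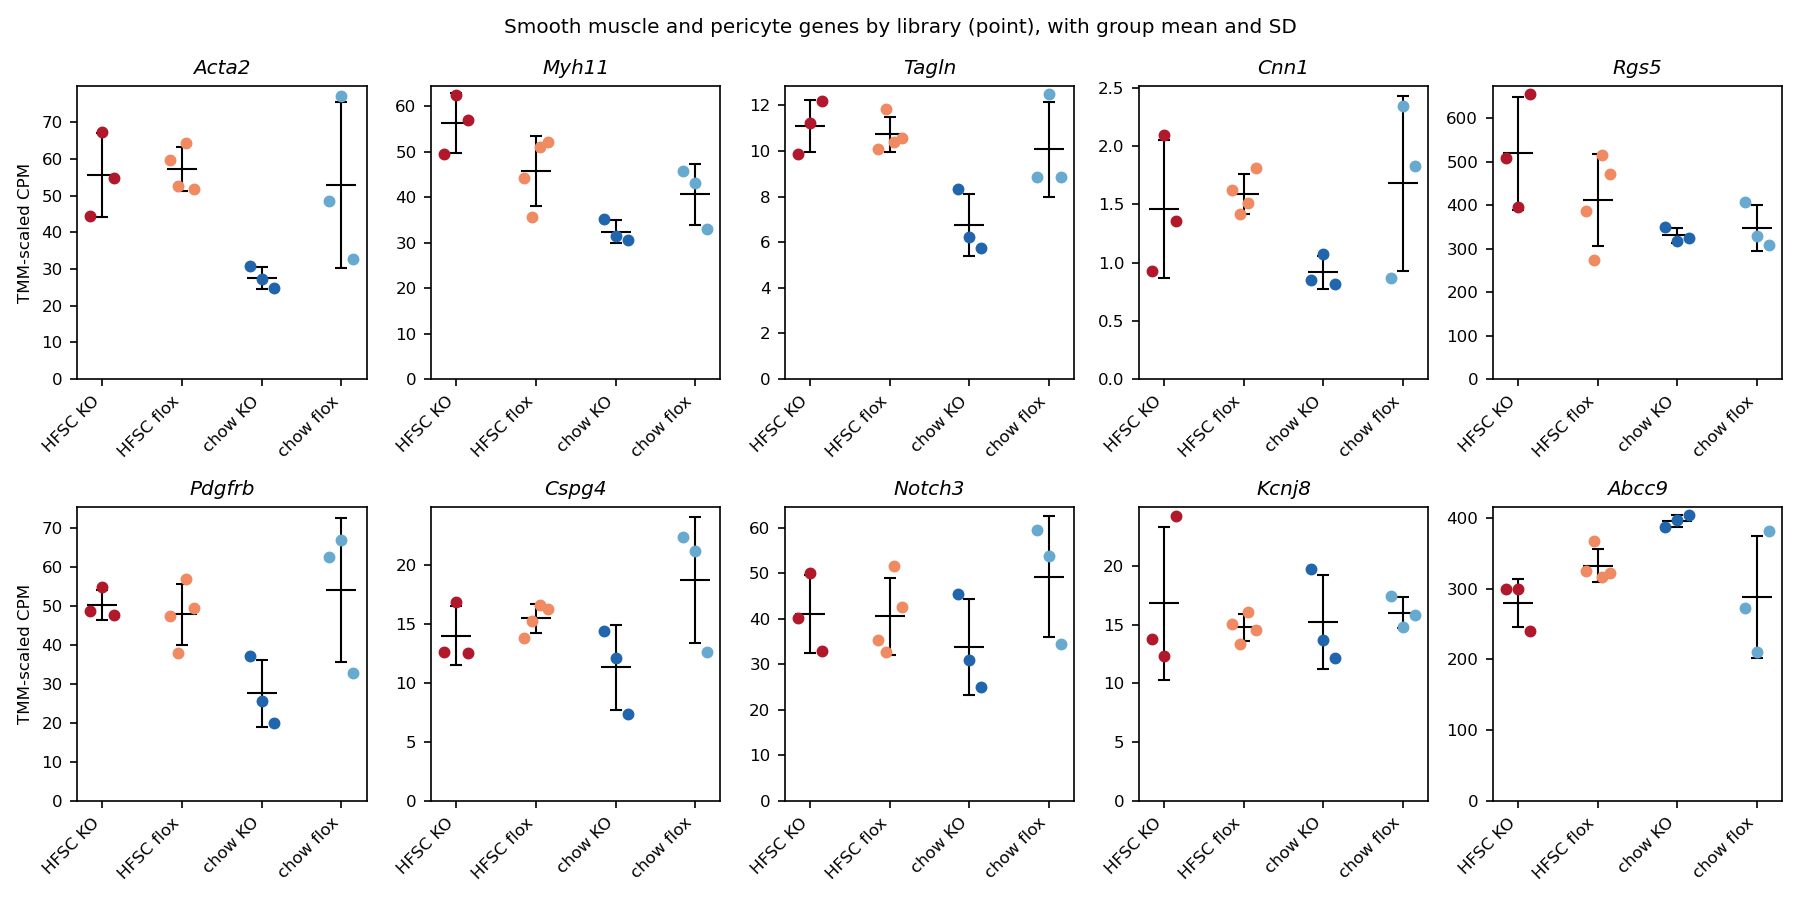
TMM-scaled CPM of each of the 10 genes in the 13 libraries (points), with the group mean (bar) and SD (whisker), for HFSC KO, HFSC flox, chow KO and chow flox. Acta2 lay between 24.8 and 30.8 CPM in chow KO and between 32.7 and 77.3 CPM in chow flox, while Abcc9 ran the other way.

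KO was first compared with flox on chow. Acta2, the smooth muscle alpha actin, and Pdgfrb, the PDGF-B receptor, were about 2-fold lower in chow KO, and no member rose. Acta2 had 30.8, 27.3 and 24.8 CPM in chow KO replicates 1, 2 and 3, against 48.6, 77.3 and 32.7 CPM in chow flox replicates 2, 3 and 4. The groups did not overlap, with chow flox replicate 4 just above the highest knockout. Its log2 fold change was -0.94 ± 0.25 (SE; edgeR quasi-likelihood test, adjusted p = 0.033). Pdgfrb had 37.0, 25.5 and 19.99 CPM in chow KO and 62.4, 66.8 and 32.7 CPM in chow flox. Here chow flox replicate 4 lay below chow KO replicate 1, and the log2 fold change was -0.97 ± 0.26 (adjusted p = 0.035). These 2 of 10 members that fell compare with 10.1% of all tested genes called lower in chow KO.

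The other contractile members were lower on average without passing the test. Tagln, which encodes the actin-binding protein transgelin, had 8.32, 6.23 and 5.73 CPM in chow KO and 8.88, 12.5 and 8.84 CPM in chow flox, groups that did not overlap, with a log2 fold change of -0.57 ± 0.17 (adjusted p = 0.051). Tagln shares 1241 exon bases with an antisense transcript, Gm48529, and 108 with Pcsk7 on the opposite strand, and as the strand setting of the counting is not given, their reads cannot be told apart. Over the 13 libraries Tagln had 3965 reads, Pcsk7 7237 and Gm48529 585. Notch3 and Abcc9 also share exon bases with antisense transcripts, 488 with Gm17276 (100 reads) and 158 with 5330439B14Rik (101 reads). Cnn1, which encodes calponin, had 0.85, 1.08 and 0.82 CPM in chow KO and 0.87, 2.35 and 1.83 CPM in chow flox, and Myh11, the smooth muscle myosin heavy chain, had 35.2, 31.6 and 30.5 CPM in chow KO and 45.8, 43.0 and 33.0 CPM in chow flox. Both pairs of groups overlapped, and the log2 fold changes were -0.87 ± 0.37 for Cnn1 (adjusted p = 0.124) and -0.32 ± 0.16 for Myh11 (adjusted p = 0.171). Of all tested genes 13.9% were lower in chow KO with no overlap between the groups, as Acta2 and Tagln were.

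The pericyte members other than Pdgfrb did not pass the test on chow. Cspg4, which encodes the NG2 proteoglycan, had 14.4, 12.1 and 7.37 CPM in chow KO and 22.4, 21.2 and 12.6 CPM in chow flox (log2 fold change -0.73 ± 0.24, adjusted p = 0.070). Notch3 had 45.5, 30.9 and 24.9 CPM in chow KO and 59.6, 53.9 and 34.3 CPM in chow flox (-0.54 ± 0.26, adjusted p = 0.157). For both genes chow flox replicate 4 fell inside the knockout range. Rgs5 had 349.8, 318 and 325 CPM in chow KO and 408, 329 and 308 CPM in chow flox, and Kcnj8, which encodes the potassium channel pore Kir6.1, had 19.8, 13.7 and 12.2 CPM in chow KO and 17.4, 14.8 and 15.8 CPM in chow flox. Their log2 fold changes were both -0.07, with 95% confidence intervals of -0.57 to 0.42 for Rgs5 and -0.57 to 0.43 for Kcnj8. Abcc9 was the 1 member with a positive value, at 387, 397 and 404 CPM in chow KO against 272, 211 and 382 CPM in chow flox. These groups did not overlap, as for 10.9% of all tested genes in this direction, but the log2 fold change of 0.46 ± 0.18 did not pass (adjusted p = 0.107).

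**Figure D2:**
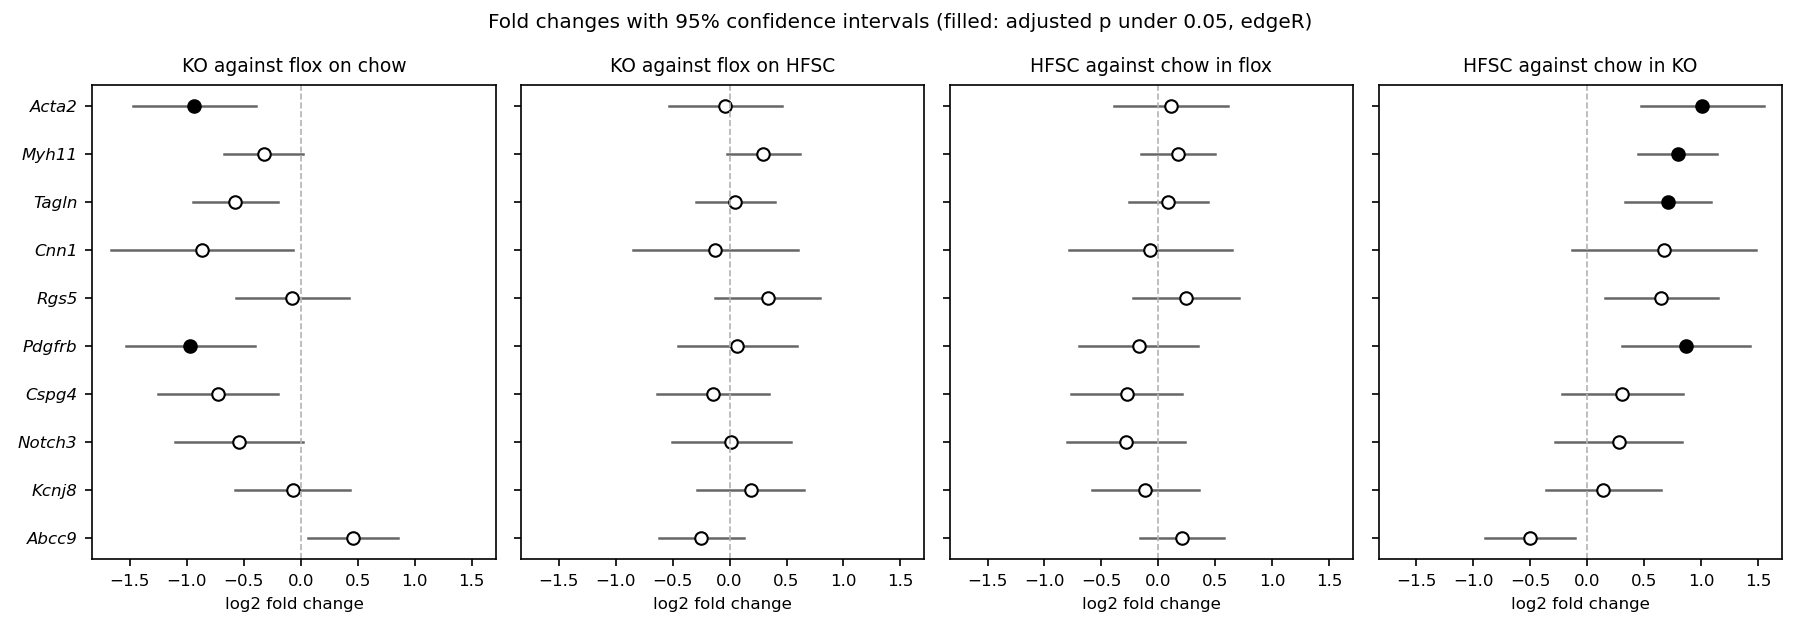
Log2 fold changes of the 10 genes (points) with 95% confidence intervals (lines) in the 4 contrasts, filled where the adjusted p is under 0.05. Acta2 (-0.94) and Pdgfrb (-0.97) pass on chow, 4 members pass for HFSC in KO, none passes in the other contrasts, and Abcc9 lies opposite to most members on chow (0.46) and for HFSC in KO (-0.50).

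The calls on chow depended on single libraries. Without chow flox replicate 4, 7 members passed: Acta2 (-1.18, adjusted p = 0.00064), Pdgfrb (-1.24, adjusted p = 0.00077), Cspg4 (-0.94), Notch3 (-0.74), Tagln (-0.65) and Myh11 (-0.45) fell and Abcc9 rose (0.72, adjusted p = 0.0015), beside 42.8% of the genes tested in that fit. Neither Acta2 nor Pdgfrb passed without chow KO replicate 2 or 3, chow flox replicate 2 or 3, or HFSC KO replicate 4, with adjusted p from 0.052 to 0.172. The adjusted p of Acta2 was 0.059 without chow KO replicate 1 and that of Pdgfrb 0.051 without HFSC flox replicate 1. With chow flox replicate 3 left out the log2 fold change of Acta2 was -0.58, since that library had the highest level of this gene. No member passed with only the 2 groups in the fit (adjusted p = 0.192 for both genes), with the replicate number as a block (Acta2 0.056, Pdgfrb 0.059), or without the low-count filter (Acta2 0.053, Pdgfrb 0.068). Other settings called more members: Tagln and Cspg4 also passed with library totals (adjusted p = 0.030 and 0.040), with DESeq2 (0.028 and 0.037) and with limma voom, which called Myh11, Notch3 and Abcc9 too but called 9899 of 16496 genes.

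**Figure D3:**
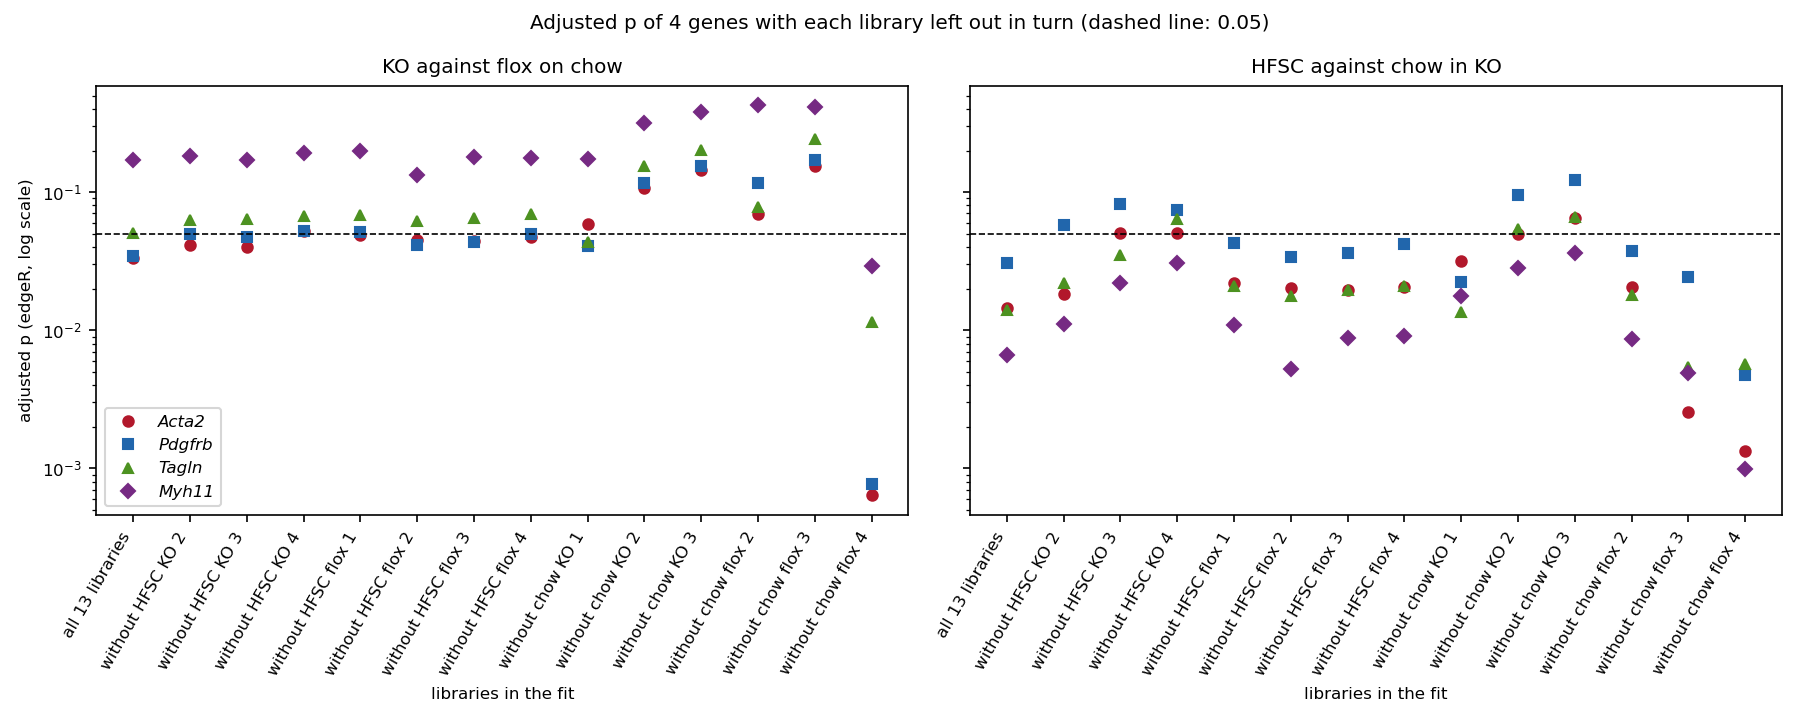
Adjusted p (edgeR, log axis) of Acta2, Pdgfrb, Tagln and Myh11 with all 13 libraries and with each left out in turn, for KO against flox on chow (left) and HFSC against chow in KO (right), the dashed line marking 0.05. On chow Acta2 spans 0.00064 to 0.155, lowest without chow flox replicate 4, and in KO Myh11 stays under the line throughout (at most 0.036).

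Further genes of the same cells were read from lists of related genes. Their counts called lower in chow KO, here and in the next paragraph, stand beside 10.1% of all tested genes. Of 12 other smooth muscle contractile genes 3 fell in chow KO: Cald1, caldesmon (-0.98 ± 0.23, adjusted p = 0.025), Myl9, the regulatory light chain of smooth muscle myosin (-0.44 ± 0.11, adjusted p = 0.031), and Mylk, the kinase that phosphorylates it (-0.59 ± 0.17, adjusted p = 0.044). The 12 did not move as 1, with 8 negative and 4 positive values and a median of -0.31. Their summed level was 1134 to 1237 CPM in chow KO and 781 to 1213 CPM in chow flox. Most of it was Synpo2, averaging 962 and 688 CPM in these groups. Of 6 regulators of the smooth muscle programme, 1 fell, Csrp1 (-0.83 ± 0.19, adjusted p = 0.023), a LIM protein that binds SRF. Srf itself had the 1 positive value of this list (0.48) and did not pass. It had 96.1 to 111.5 CPM in chow KO and 59.7 to 93.6 CPM in chow flox. These groups did not overlap, as for 10.9% of all tested genes in this direction. Of 14 further pericyte genes 3 fell: Anpep, which encodes CD13 (-2.41 ± 0.46, adjusted p = 0.017), Tbx18, a transcription factor of mural cells (-1.66 ± 0.45, adjusted p = 0.035), and Mcam, which encodes CD146 (-0.80 ± 0.22, adjusted p = 0.036). All 14 pericyte genes had negative values, with a median of -0.58, against a median of -0.01 over all genes tested and -0.56 over the 10 members. Among 4 PDGF ligand genes and Pdgfra, the alpha receptor and Pdgfc fell (-1.28 and -1.29), and Pdgfb did not pass. Of 12 Notch pathway genes 0 passed by edgeR, with 11 negative values and a median of -0.50.

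Markers of other cells moved on chow as well. All 10 fibroblast markers fell in chow KO, with a summed level of 402 to 613 CPM in chow KO and 1222 to 6426 CPM in chow flox, as did all 6 macrophage markers, at 20.1 to 33.2 CPM in chow KO and 49.5 to 278.6 CPM in chow flox. Of 10 endothelial markers, 2 fell (Cdh5 and Pecam1), and the sum was 313 to 356 CPM in chow KO and 339 to 580 CPM in chow flox. No marker of these 3 lists was at 0 in any library. Pdgfrb is also known from fibroblasts, and Acta2 from activated fibroblasts. Of 5 regenerating fibre and myoblast markers 0 were called, with sums of 62.3 to 165 CPM in chow KO and 91.5 to 939 CPM in chow flox. The highest sum of all libraries was in chow flox replicate 3 (939 CPM) and the next in HFSC KO replicate 3 (837 CPM). These libraries also had the highest Acta2 (77.3 and 67.5 CPM) and Cnn1 (2.35 and 2.10 CPM). Chow flox replicate 4 had median levels of -0.74 for fibroblast, -0.77 for macrophage and -0.69 for endothelial markers on the log2 scale relative to all libraries, nearer to chow KO (-1.55 to -1.21, -2.14 to -1.35 and -0.75 to -0.56) than chow flox replicates 2 and 3 were. The part of these other cells in the values of the members was not tested.

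**Figure D4:**
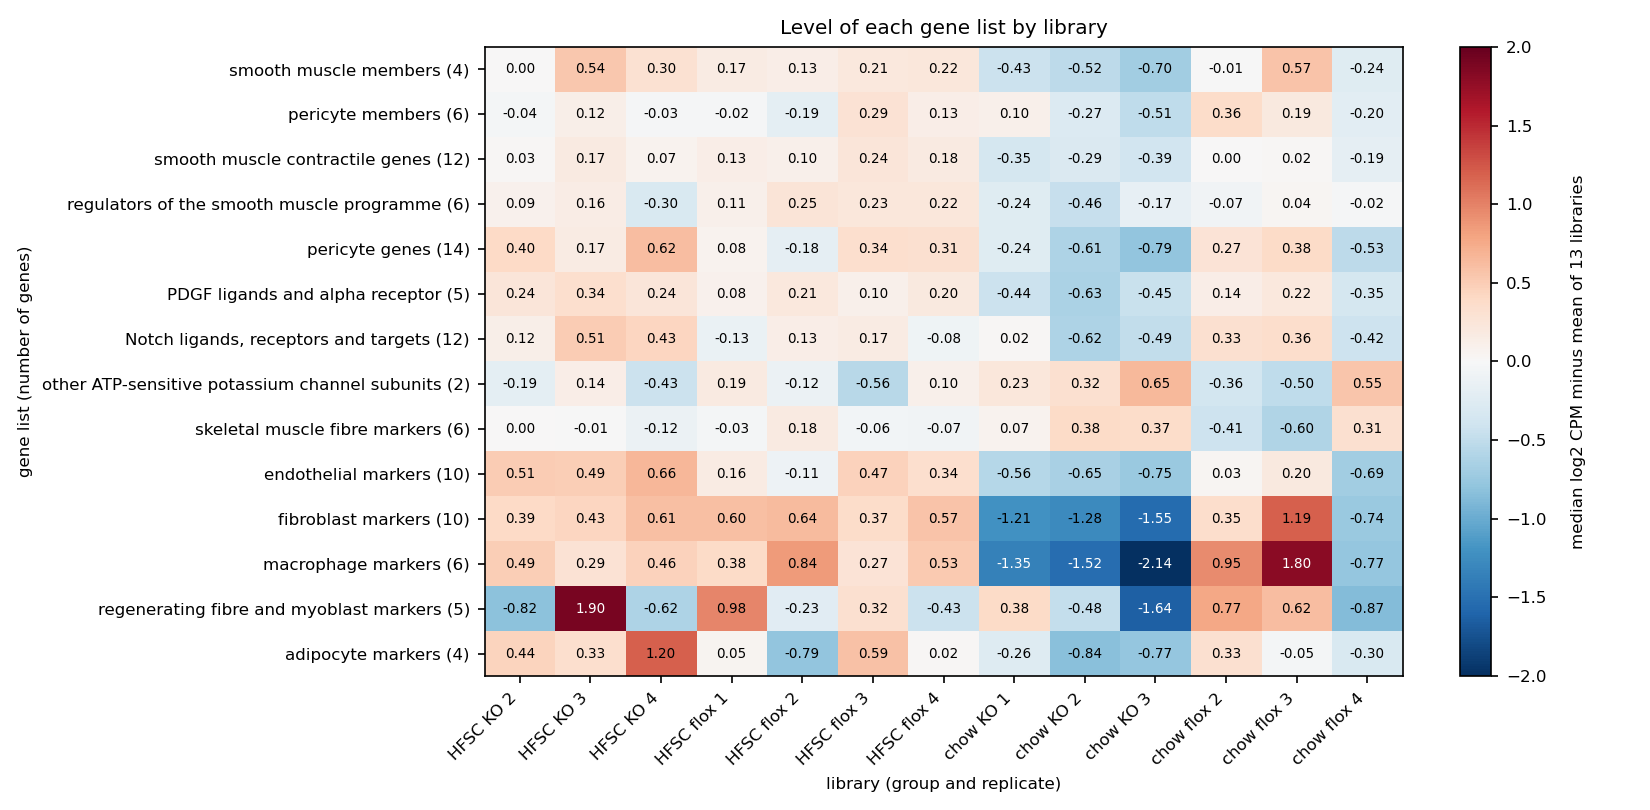
Median log2 CPM of each gene list (rows, with the number of genes) in each library (columns), relative to the mean of the 13 libraries. The chow KO libraries are low for fibroblast (-1.55 to -1.21) and macrophage markers (-2.14 to -1.35) as well as for the 4 smooth muscle members (-0.70 to -0.43), and chow flox replicate 4 (-0.24 for these members) lies on the same side.

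On HFSC, no member passed the test of KO against flox. Of the 10 members 0 passed by edgeR, 0 had an unadjusted p under 0.05, and 0 passed by DESeq2 or limma voom, beside 3 of all tested genes, or 0.0182%. Acta2 had 44.6, 67.5 and 55.0 CPM in HFSC KO replicates 2, 3 and 4, against 59.9, 52.7, 64.4 and 51.9 CPM in HFSC flox replicates 1 to 4. The knockouts spanned the whole range of the controls, and the log2 fold change of -0.04 had a 95% confidence interval of -0.54 to 0.46. Pdgfrb had 48.6, 54.7 and 47.5 CPM in HFSC KO and 47.3, 37.8, 56.9 and 49.5 CPM in HFSC flox (0.07, interval -0.45 to 0.59). The smallest unadjusted p was that of Myh11, at 49.5, 62.5 and 56.9 CPM in HFSC KO against 44.3, 35.6, 51.1 and 52.2 CPM in HFSC flox (0.30 ± 0.15, edgeR adjusted p = 0.521). HFSC KO replicate 2 lay inside the control range for this gene.

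The remaining members on HFSC were close between genotypes or widely spread. Tagln had 9.88, 11.2 and 12.2 CPM in HFSC KO and 10.1, 11.9, 10.4 and 10.6 CPM in HFSC flox (0.05, interval -0.30 to 0.40). Cnn1 had 0.93, 2.10 and 1.36 CPM in HFSC KO and 1.62, 1.42, 1.51 and 1.82 CPM in HFSC flox. The 3 knockouts of Cnn1 fell on both sides of the controls. Rgs5 had 509, 396 and 656 CPM in HFSC KO and 388, 274, 516 and 472 CPM in HFSC flox (0.33 ± 0.21, adjusted p = 0.628). Kcnj8 had 13.8, 12.4 and 24.3 CPM in HFSC KO and 15.1, 13.4, 16.1 and 14.6 CPM in HFSC flox. HFSC KO replicate 4 held the highest level of both Rgs5 and Kcnj8 among the 13 libraries. Cspg4 had 12.6, 16.9 and 12.5 CPM in HFSC KO and 13.8, 15.3, 16.6 and 16.3 CPM in HFSC flox, and Notch3 had 40.2, 49.95 and 32.8 CPM in HFSC KO and 35.2, 32.7, 51.6 and 42.5 CPM in HFSC flox. Abcc9 was the 1 member whose groups did not overlap, at 299.8, 299.5 and 240.6 CPM in HFSC KO against 326, 367, 316 and 321 CPM in HFSC flox, with a log2 fold change of -0.25 ± 0.17 (adjusted p = 0.663). Of all tested genes 5.31% were lower in HFSC KO without overlap. None of the genes in the other mural and pathway lists passed on HFSC by edgeR.

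In KO mice, HFSC was then compared with chow, and here Myh11, Acta2, Tagln and Pdgfrb were higher on HFSC by 1.64- to 2.01-fold. Against the chow KO values above, Myh11 was 1.73-fold higher in HFSC KO (log2 fold change 0.79 ± 0.16, edgeR adjusted p = 0.0066), with 49.5 to 62.5 CPM in HFSC KO and 30.5 to 35.2 CPM in chow KO. Acta2 was 2.01-fold higher (1.01 ± 0.25, adjusted p = 0.015), averaging 55.7 ± 11.5 CPM in HFSC KO and 27.6 ± 3.004 CPM in chow KO (SD, n = 3 each). Tagln was 1.64-fold higher (0.71 ± 0.17, adjusted p = 0.014) and Pdgfrb 1.83-fold (0.87 ± 0.26, adjusted p = 0.031), although Pdgfrb did not pass with library totals (adjusted p = 0.056) or without the low-count filter (0.072). For each of these 4 genes every HFSC KO library exceeded every chow KO library. These 4 of 10 members that rose compare with 14.9% of all tested genes called higher, and 5 of 10 without overlap with 26.8% of all tested genes. Over all tested genes 2459 were called higher and 1742 lower, or 2407 and 1046 when scaled by library totals. The 3 chow KO libraries enter both this contrast and that of KO against flox on chow, so these results are not independent.

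The fifth member without overlap was Rgs5, averaging 520 ± 130.1 CPM in HFSC KO and 331 ± 16.8 CPM in chow KO, whose log2 fold change of 0.65 ± 0.23 did not pass by edgeR (adjusted p = 0.054). Rgs5 did pass with library totals (adjusted p = 0.048), DESeq2 (0.029), limma voom (0.0070), only the 2 groups in the fit (0.020) and in 4 of the 13 fits that left out 1 library (0.032 to 0.047). Cnn1 (0.67 ± 0.37), Cspg4 (0.31 ± 0.25), Notch3 (0.28 ± 0.26) and Kcnj8 (0.14 ± 0.23) did not pass by edgeR either, with adjusted p from 0.191 to 0.670. Abcc9 averaged 280.0 ± 34.1 CPM in HFSC KO and 396 ± 8.64 CPM in chow KO, with no overlap, as for 23.8% of all tested genes in this direction, and a log2 fold change of -0.50 ± 0.18 (edgeR adjusted p = 0.061). Abcc9 passed with library totals (adjusted p = 0.044), DESeq2 (0.025), limma voom (0.0029), only the 2 groups in the fit (0.0091) and without chow flox replicate 3 (0.019) or 4 (0.0076). In this contrast edgeR called 4201 of 16496 genes with all libraries and 1459 to 6112 genes with 1 library left out. Limma voom called more than any of these fits, so a pass is not particular to Rgs5 or Abcc9. The call of Myh11 held in each of the 13 fits that left out 1 library. Those of Acta2 (adjusted p up to 0.065) and Tagln (up to 0.066) were lost in 3 of these fits and that of Pdgfrb (up to 0.123) in 5. All 3 were lost without chow KO replicate 3 or HFSC KO replicate 4, Tagln and Pdgfrb without chow KO replicate 2, Acta2 and Pdgfrb without HFSC KO replicate 3, and Pdgfrb without HFSC KO replicate 2.

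Many genes of the related lists were also called in KO on HFSC. Their counts, here and in the next paragraph, stand beside 14.9% of all tested genes called higher and 4201 of 16496 called in either direction. Of 12 other contractile genes 5 rose, led by Cald1 (1.34 ± 0.24, adjusted p = 0.0039), Myl9 (0.63 ± 0.11, adjusted p = 0.0044) and Mylk (0.82 ± 0.17, adjusted p = 0.0076). One fell, Pcp4l1, a small calmodulin-binding protein gene (-2.52 ± 0.57, adjusted p = 0.010). Among 6 regulators Csrp1 (1.15), Klf4 (1.501), a repressor of the contractile programme, and Myocd, which encodes myocardin (1.42), rose, while Srf (-0.60) and Mrtfa, a myocardin-related partner of SRF (-0.75), fell. Myocd rested on few reads, 24, 23 and 8 in HFSC KO and 5, 5 and 8 in chow KO. The groups overlapped for Myocd and for Mrtfa. Of 14 pericyte genes 10 rose and none fell, among them Mcam (1.22 ± 0.22, adjusted p = 0.0042), P2ry14, a purinergic receptor (1.61 ± 0.30, adjusted p = 0.0050), and Vtn, vitronectin (0.89 ± 0.23, adjusted p = 0.016). Their median was 1.05, against 0.66 over the 10 members and 0.02 over all genes tested.

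The pathways that run through the receptors among the members were included in this comparison. Pdgfb, the ligand of Pdgfrb, rose by 0.67 ± 0.15 (adjusted p = 0.0099), with 32.4 to 43.5 CPM in HFSC KO and 20.3 to 26.0 CPM in chow KO. Pdgfd, another ligand of that receptor, rose by 1.29 ± 0.20 (adjusted p = 0.0027) and Pdgfra by 1.85 ± 0.18, whereas Pdgfa, a ligand of the alpha receptor, fell (-0.63 ± 0.14, adjusted p = 0.010). Of 12 Notch pathway genes 5 rose, namely Hey1 (1.19 ± 0.24, adjusted p = 0.0061) and Heyl (1.09 ± 0.30, adjusted p = 0.022), transcriptional targets of Notch, Nrarp (1.81), a feedback inhibitor, Notch1 (0.70) and the endothelial ligand gene Dll4 (0.90). Notch3 itself did not pass. Markers of other cells were also higher: all 10 endothelial markers rose, with sums of 727 to 820 CPM in HFSC KO and 313 to 356 CPM in chow KO. All 10 fibroblast markers (2445 to 2992 CPM in HFSC KO and 402 to 613 CPM in chow KO) and all 6 macrophage markers (103.7 to 119 CPM in HFSC KO and 20.1 to 33.2 CPM in chow KO) rose too. So did all 4 adipocyte markers (433 to 646 CPM in HFSC KO and 173 to 215 CPM in chow KO), with no marker of the 4 lists at 0. Fabp4 made up most of the adipocyte sums, at 389 to 553 CPM in HFSC KO and 153 to 182 CPM in chow KO. Of 6 fibre markers, 1 rose (Myh1). The part of these cells in the rise of the members was not tested.

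In flox mice the same diet contrast showed no called member. Of the 10 members 0 passed by edgeR or DESeq2 and 0 had an unadjusted p under 0.05, against 69 of all tested genes, or 0.418%, while limma voom with quality weights called 4 (Cnn1 and Abcc9 higher, Cspg4 and Notch3 lower) beside 25.3% of all tested genes. Acta2 averaged 57.2 ± 5.99 CPM in HFSC flox (SD, n = 4) and 52.9 ± 22.6 CPM in chow flox (n = 3), a log2 fold change of 0.11 with a 95% confidence interval of -0.39 to 0.61. The chow flox libraries covered the whole HFSC flox range. Myh11 averaged 45.8 ± 7.66 CPM in HFSC flox and 40.6 ± 6.73 CPM in chow flox, with a log2 fold change of 0.17 ± 0.15. Scaling by library totals without TMM factors, which moved the median of all genes by -0.16, turned the fold changes of Acta2 (-0.11), Tagln (-0.10) and Myh11 (-0.00163) negative. Of all tested genes 19 were higher and 50 lower with TMM, and 9 and 47 with library totals. Cspg4 (-0.28 ± 0.23), Notch3 (-0.28 ± 0.24) and Abcc9 (0.21 ± 0.17) had adjusted p from 0.650 to 0.664. For Pdgfrb the HFSC flox libraries ran from 37.8 to 56.9 CPM, inside the range of 32.7 to 66.8 CPM in chow flox. Without chow flox replicate 4, Abcc9 passed (0.46, adjusted p = 0.049). The fits that left out 1 library called 15 to 1456 of all genes in this contrast, against 69 with all libraries. None of the genes in the other mural and pathway lists passed here by edgeR.

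Whether the diet acted differently in the genotypes was tested by the interaction, the log2 fold change of HFSC over chow in KO minus that in flox. By edgeR 0 members and 0 genes of all (0%) passed, although 5 members (Pdgfrb, Myh11, Abcc9, Acta2 and Tagln) and 4811 of all tested genes had an unadjusted p under 0.05. The estimates were 1.04 ± 0.35 for Pdgfrb (adjusted p = 0.099), 0.90 ± 0.34 for Acta2 (adjusted p = 0.116), 0.62 ± 0.22 for Myh11 (adjusted p = 0.103) and -0.71 ± 0.25 for Abcc9 (adjusted p = 0.105). For 9 of the 10 members the value was positive, with Abcc9 the exception and a median of 0.60, against 0.04 over all genes tested. With all 13 libraries DESeq2 called 2 members, Pdgfrb (adjusted p = 0.049) and Abcc9 (adjusted p = 0.041), beside 13.3% of the genes it tested, and limma voom called 8 members beside 43% of the genes tested. Without chow flox replicate 4 edgeR called 6 members, Acta2 (1.14), Pdgfrb (1.29), Myh11 (0.75), Tagln (0.70) and Cspg4 (0.80) with positive and Abcc9 (-0.97) with negative values, beside 34.9% of the genes tested in that fit. Leaving out any other single library left the members' count at 0. By edgeR with all 13 libraries, the calls in KO and their absence in flox thus do not show a difference between the genotypes, while the other tools call one for some members.

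Abcc9 had the profile least like those of the other 9 members. Likeness was measured as the root mean square distance between standardized log2 CPM profiles over the 13 libraries, where 0 is the same profile and 1.41 is the value for unrelated ones. From Abcc9 the distance to Acta2 was 1.88 and to Kcnj8 1.64, but to Kcnj11 0.495 and to Synpo2 0.397. Kcnj11 encodes Kir6.2, the pore that joins the SUR2A form of the Abcc9 product in channels of striated muscle fibres, and Synpo2 encodes an actin-binding protein of both smooth and striated muscle. Kcnj8 encodes the pore that joins the SUR2B form in vascular smooth muscle and pericytes. Abcc9 reads are counted per gene, so these forms cannot be told apart.

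Per kilobase of exon, the fibre pore was nearer to Abcc9 than the mural pore was. The ratio of Abcc9 to Kcnj8 was 3.01 to 7.38 in HFSC KO, 5.97 to 8.36 in HFSC flox, 5.95 to 10.1 in chow KO and 4.33 to 7.34 in chow flox. That of Abcc9 to Kcnj11 was 1.1996 to 1.52 in HFSC KO, 1.14 to 1.75 in HFSC flox, 1.03 to 1.27 in chow KO and 1.06 to 1.36 in chow flox. Over the 13 libraries the second ratio varied less for its size, from 1.03 to 1.75, than the first, from 3.01 to 10.1. Within HFSC flox the second ratio varied more for its size. Kcnj11 did not pass in any contrast, with log2 fold changes of 0.53 ± 0.27 for KO against flox on chow (adjusted p = 0.177) and -0.71 ± 0.27 for HFSC against chow in KO (adjusted p = 0.065). The values of Abcc9 in these contrasts, 0.46 and -0.50, had the same signs, and so did those of Synpo2 (0.48 and -0.66). The summed level of the 6 fibre markers ran from 128679 to 168934 CPM in chow KO and from 69874 to 156257 CPM in chow flox.

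**Figure D5:**
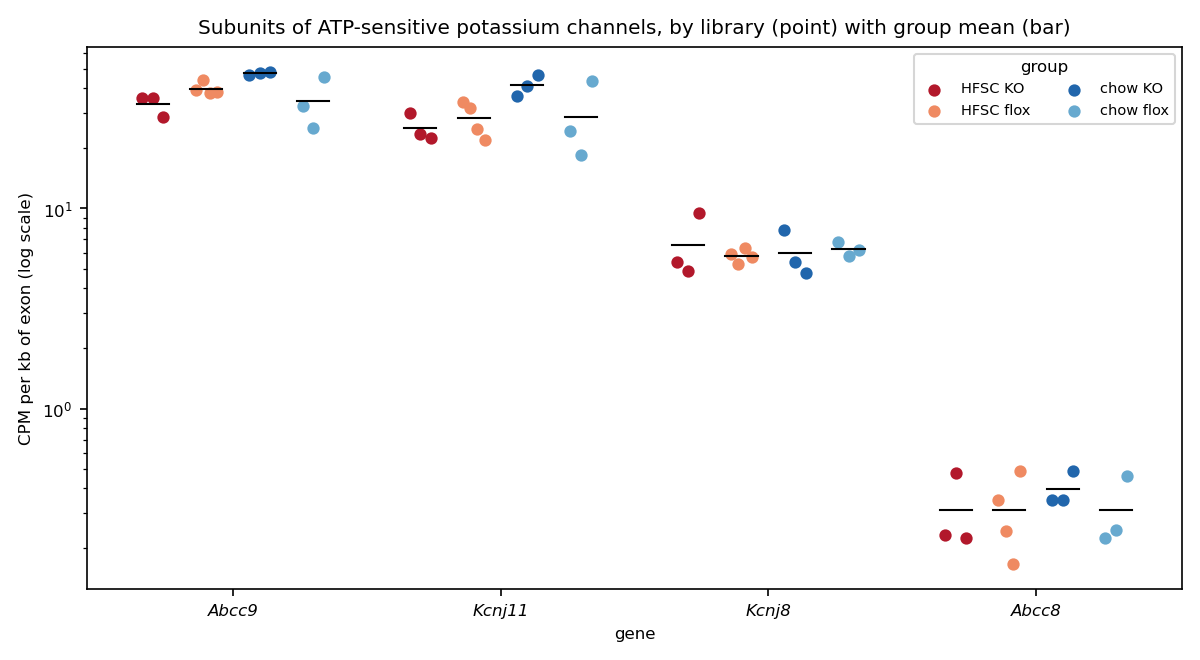
CPM per kb of exon (log axis) of the potassium channel genes Abcc9, Kcnj11, Kcnj8 and Abcc8 in each library (points) with the group mean (bar), for HFSC KO, HFSC flox, chow KO and chow flox. Abcc9 and Kcnj11 are both highest on average in chow KO, while the group means of Kcnj8 lie between 5.80 and 6.60 CPM per kb.

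Among themselves the other members fell into looser neighbourhoods. The closest pairs were Cspg4 and Notch3 (0.459), Acta2 and Tagln (0.461) and Acta2 and Pdgfrb (0.473). Myh11 was closer to the endothelial gene Pecam1 (0.356) than to any member. Rgs5 was nearest to Myh11 (0.663) and distant from Acta2 (1.12), and Kcnj8 was no nearer than 0.978 to another member (Rgs5). The libraries share composition and depth, so these distances describe the 13 libraries and no test was made of them.

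Among tested genes averaging 1 CPM or more and with a regular symbol, those with profiles most like Acta2 were Meox1, a homeobox gene (0.232), Msn, which encodes the membrane linker moesin (0.259), and Lrrc17 (0.268). For Pdgfrb they were Vsir, an immune checkpoint receptor gene (0.223), Armcx1 (0.246) and Xaf1 (0.258), and for Myh11 Aqp7, a glycerol channel gene (0.234), Sbf2 (0.279) and Tenm4 (0.288). Rgs5 had no partner as close, its nearest being Opcml (0.364), Tmem45b (0.385) and Ccdc28b (0.413). Meox1 averaged 6.32, 6.16, 1.46 and 5.42 CPM in HFSC KO, HFSC flox, chow KO and chow flox, so chow KO was the low group for it as for Acta2. Vsir averaged 20.5, 20.2, 7.87 and 26.4 CPM in the same order, and Aqp7 17.2, 12.6, 6.35 and 8.45 CPM.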

How the data were processed

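The authors deposited 1 table of raw counts, whole numbers of reads for each Ensembl gene in 13 libraries. Trimmomatic 0.36, STAR 2.5.2b, featureCounts, Subread 1.5.2 and build GRCm38 are named, per the submitters' processing notes. Which annotation release was counted, whether strand was used and how multiply aligned reads were treated is not given in the sources used here. Symbols, coordinates and exon lengths were taken from GENCODE M21 (49056 of 49315 identifiers matched).

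Groups came from the genotype and diet labels. The robust quasi-likelihood F test of edgeR 4.0.16 (R 4.3.3) was run on the deposited counts after filterByExpr and TMM scaling. All 13 libraries entered 1 model of 4 group means, with Benjamini-Hochberg adjustment over 16496 genes and a threshold of 0.05. SE was derived from each fold change and its F value. Gene profiles were log2 CPM (prior count 2). The edgeR steps were run on data simulated with 1 mean per gene in all libraries, apart from planted changes. The simulation held no library like chow flox replicate 4, so it does not bear on calls that turn on single libraries. As alternatives, RLE (relative log expression) size factors, library totals, DESeq2 1.42.0, limma 3.58.1 voom with quality weights, no filter, a replicate block, only the groups compared, and leaving out each library were tried.

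Members had 19 reads (Cnn1) to 22368 reads (Rgs5) per library, and precision is also limited by there being 3 or 4 libraries a group. Replicates differed by more than sampling noise in every pair (chi-square per degree of freedom 10.5 to 193, over genes with at least 20 counts in the pair). All 10 members are named. Of the other lists, called genes with the smallest p are named, up to 3 per direction, with some further pathway genes, markers and Synpo2 chosen after their values were seen, and the 3 most alike genes are named for Acta2, Myh11, Rgs5 and Pdgfrb. Members, lists and tests were chosen with earlier results of these data known. Sequence windows came from RefSeq tables, in which Myh11, Tagln and Pdgfrb were not matched.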

Additional observations from a re-analysis of the deposited data

How the results depend on the processing

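Of 10 members, KO against flox on chow called 4 with library totals, 4 with DESeq2, 7 with limma voom, and 0 without the low-count filter, with the replicate block or with only the 2 groups; over all genes, library totals gave 3096, DESeq2 3158, voom 9899, the block 0 and the 2 groups alone 2, against 1898. KO against flox on HFSC called 3 genes, but 142 with DESeq2, 33 with voom, 22 without the filter and 0 with library totals, the block or the 2 groups alone. HFSC against chow in flox called 69 genes, but 370 with DESeq2, 4176 and 4 members with voom, and 4 with the 2 groups alone. HFSC against chow in KO called 4201 genes, but 7160 with voom and 2382 with the block. The interaction called 0 genes, but 1963 and 2 members with DESeq2, 7098 and 8 members with voom, and 161 genes without the filter.

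Libraries with the same replicate number were not alike in their deviations from group means (10 same-number pairs, r from -0.34 to 0.08). The labels do not say what the numbers stand for, and why calls were lost under the replicate block was not tested. Leaving out 1 library at a time, members called ran from 0 to 7 for KO against flox on chow, 0 to 0 on HFSC, 0 to 1 for HFSC against chow in flox, 1 to 6 in KO and 0 to 6 for the interaction. Genes called ran from 0 to 7261, 0 to 20, 15 to 1456, 1459 to 6112 and 0 to 5928 for the same contrasts. Library totals shifted the all-gene median (log2) by -0.35 for KO against flox on chow, 0.21 for HFSC against chow in KO, -0.16 in flox and 0.37 for the interaction.

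Signs changed for some members that had not passed by edgeR with TMM and all libraries. With voom Cnn1 was 0.0174 for KO against flox on chow, 0.80 for HFSC against chow in flox (adjusted p = 0.027) and -0.47 for the interaction, Notch3 -0.0224 for KO against flox on HFSC, and Rgs5 -0.00524 for HFSC against chow in flox. With the block Acta2 was 0.00672 for KO against flox on HFSC and Cnn1 0.0133 for HFSC against chow in flox. With library totals Acta2 (-0.11), Tagln (-0.10) and Myh11 (-0.00163) changed sign for HFSC against chow in flox. With 1 library left out, Rgs5 ran from -0.15 to 0.0381 and Kcnj8 from -0.31 to 0.0685 for KO against flox on chow. On HFSC, Acta2 ran from -0.20 to 0.10, Tagln from -0.0345 to 0.13, Cnn1 from -0.48 to 0.12, Pdgfrb from -0.0272 to 0.16, Notch3 from -0.15 to 0.15 and Kcnj8 from -0.19 to 0.36. For HFSC against chow in flox, Acta2 ran from -0.14 to 0.50, Cnn1 from -0.38 to 0.29 and Pdgfrb from -0.43 to 0.0129. Kcnj8 ran from -0.25 to 0.38 for HFSC against chow in KO and from -0.12 to 0.49 for the interaction. RLE size factors changed no member's call. The cause of these changes was not tested.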
